A study of Mus musculus with 10 samples.

Results

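Siglec and CD300 receptors are 2 families of immunoglobulin-like cell surface proteins of myeloid cells. The 10 genes described here were taken by name from the 28585 genes of a mouse RNA sequencing table: the Siglec genes Siglece, Siglecf, Siglecg, Cd33 and Siglech, and the CD300 genes Cd300a, Cd300lf, Cd300lb, Cd300ld and Cd300e. All 10 were in the table and passed the filter on low counts, among 15151 genes tested.

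Siglecs bind sialic acids at the ends of sugar chains, and CD300 receptors bind membrane lipids such as phosphatidylserine, which dying cells expose. Most Siglecs, and the CD300 receptors encoded by Cd300a and Cd300lf, carry inhibitory tyrosine motifs that recruit phosphatases. Siglech, Cd300lb, Cd300ld and Cd300e encode activating receptors that need an adaptor such as DAP12 (Tyrobp) or the Fc receptor gamma chain (Fcer1g). In the brain, microglia, the resident phagocytes, are known for Siglech and Cd33, while Siglecg is best known from B cells, Siglecf from eosinophils and alveolar macrophages, and Siglech also from plasmacytoid dendritic cells.

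The cells were sorted from the ischemic hemisphere of female mice and fell into 3 groups. Transgenic CD11c cells (4 libraries, replicates 23, 24, 26 and 27) were eYFP+ cells of Tg(Itgax-Venus)1Mnz mice aged 13 to 14 weeks, in which a promoter of the CD11c gene drives a yellow reporter in any cell that uses it, resident or blood-borne. Parabiotic CD11c cells (3 libraries, replicates 3, 11 and 15) were eYFP+ cells of C57BL/6 mice aged 15 to 16 weeks that shared their circulation with a Tg(Itgax-Venus)1Mnz partner, so the reporter came from the partner. Microglia (3 libraries, replicates 39, 40 and 41) came from CX3CR1CreERT2:Rosa26-tdT mice aged 13 to 14 weeks, whose red reporter marks cells in which the Cx3cr1 promoter was active when the recombinase was induced. Parabiotic replicate 15 has no label for sex or cell type and is labelled with the C57BL/6 strain and the Tg(Itgax-Venus)1Mnz genotype. It was placed by its title. Age and the parabiotic group cannot be told apart. Each group also came from its own kind of mouse, and microglia carried a different reporter from CD11c cells. These differences cannot be told apart from the groups either. The labels do not say whether each library came from 1 mouse, so p-values measure the spread between these libraries.

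Libraries held 31534625 to 41730688 counts. Levels are CPM, the count of a gene relative to the TMM-scaled library total, and a gene was called where the adjusted p of edgeR's quasi-likelihood test (Benjamini-Hochberg over the 15151 genes) was below 0.05. Summed levels of 8 microglial markers were 6297 to 18151 CPM in transgenic, 2033 to 3569 CPM in parabiotic and 19806 to 22532 CPM in microglia libraries. Those of 8 conventional dendritic cell markers were 120.0 to 562 CPM in transgenic, 804 to 1195 CPM in parabiotic and 15.3 to 22.5 CPM in microglia libraries. Transgenic replicates 26 and 27 carry library numbers apart from the others, and transgenic replicates 23 and 24 were closer to each other (chi-square per degree of freedom 16.8) than the other transgenic pairs (240 to 304). The labels do not say whether these numbers mark a batch, and replicates 26 and 27 differed from each other (276) about as much as from the others. Each comparison with the transgenic group was also fitted with a term for replicates 26 and 27, so that its value rests on replicates 23 and 24, called the restricted value here. In these bulk libraries, fewer cells of a type and less RNA per cell cannot be told apart.

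The 2 families moved apart between parabiotic CD11c cells and microglia. All 5 CD300 genes were higher in parabiotic CD11c cells, while 3 of the 5 Siglec genes were lower, 1 was higher and Siglece was not called. Thus 9 of the 10 genes were called, 6 higher and 3 lower, where 35.3% of all tested genes were called (17.4% higher and 17.9% lower). The median log2 fold change was 2.07 over the CD300 genes and −1.49 over the Siglec genes, against −0.02 over all tested genes. The libraries of the 2 groups did not overlap for the same number of members, 6 higher and 3 lower, against 60.3% of all tested genes (30.5% higher and 29.7% lower). All 9 calls held with each of the 10 libraries left out in turn, parabiotic replicate 15 included.

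**Figure D1:**
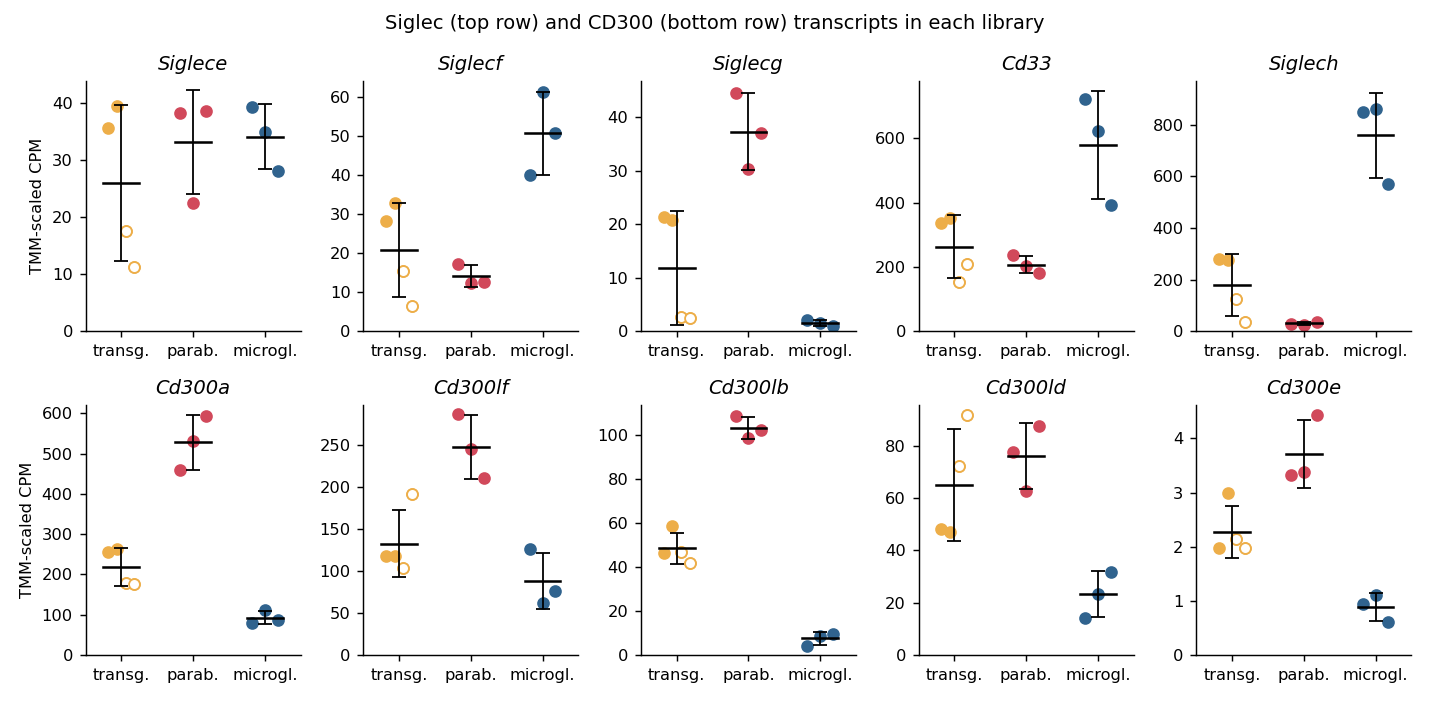
TMM-scaled CPM of the 5 Siglec genes (top row) and the 5 CD300 genes (bottom row) in each library of transgenic CD11c cells, parabiotic CD11c cells and microglia. Points are libraries, open points are transgenic replicates 26 and 27, and lines with bars are means ± SD. The CD300 genes were highest on average in parabiotic CD11c cells, and Siglecf, Cd33 and Siglech in microglia.

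Siglech, an activating Siglec that pairs with DAP12, had the most negative fold change of the 10 genes between parabiotic CD11c cells and microglia. Its level was 281, 277, 124 and 35.1 CPM in transgenic replicates 23, 24, 26 and 27, 29.0, 25.6 and 36.9 CPM in parabiotic replicates 3, 11 and 15, and 848, 859 and 568 CPM in microglia replicates 39, 40 and 41. Every microglia library was above every other library, and transgenic replicate 27 lay within the parabiotic range. The log2 fold change of parabiotic CD11c cells over microglia was −4.64 ± 0.65 (SE, edgeR adjusted p = 0.00029). That of transgenic CD11c cells over microglia was −2.08 ± 0.53 (SE, edgeR adjusted p = 0.0255). This call was lost in the restricted value (−1.44, adjusted p = 0.0755) and without transgenic replicate 26, microglia replicate 39 or microglia replicate 40 (adjusted p up to 0.097). The log2 fold change of transgenic over parabiotic CD11c cells was 2.55 ± 0.58 (SE, edgeR adjusted p = 0.0166), and 3.19 in the restricted fit (adjusted p = 0.00149). Without any 1 parabiotic library the adjusted p was up to 0.0808.

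Relative to the microglia mean, Siglech stood at 37.0%, 36.5%, 16.4% and 4.63% in transgenic replicates 23, 24, 26 and 27, and at 3.38% to 4.87% in parabiotic libraries. Sall1, a transcription factor gene of microglia, stood at 36.0%, 42.7%, 22.1% and 6.74% in the same transgenic libraries and at 0.0393% to 0.102% in parabiotic libraries. P2ry12, a microglial receptor for ADP, stood at 34.7%, 40.4%, 34.7% and 17.5% in those transgenic libraries and at 3.23% to 4.09% in parabiotic libraries. Transgenic replicate 27 was thus lowest among transgenic libraries for all 3 genes. The part of these marker levels in the Siglech result was not tested. Summed levels of 10 plasmacytoid dendritic cell markers, another known source of Siglech, were 242 to 421 CPM in transgenic, 328 to 427 CPM in parabiotic and 434 to 623 CPM in microglia libraries. Of these markers Klk1 was at 0 in microglia, and 5 of the 10 averaged under 1 CPM there. Of the 9 tested markers of that list, 4 were higher and 2 lower in parabiotic CD11c cells than in microglia, with a median log2 fold change of 0.319. Over all tested genes 17.4% were higher and 17.9% lower in that comparison. The part of plasmacytoid cells was not tested.

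**Figure D2:**
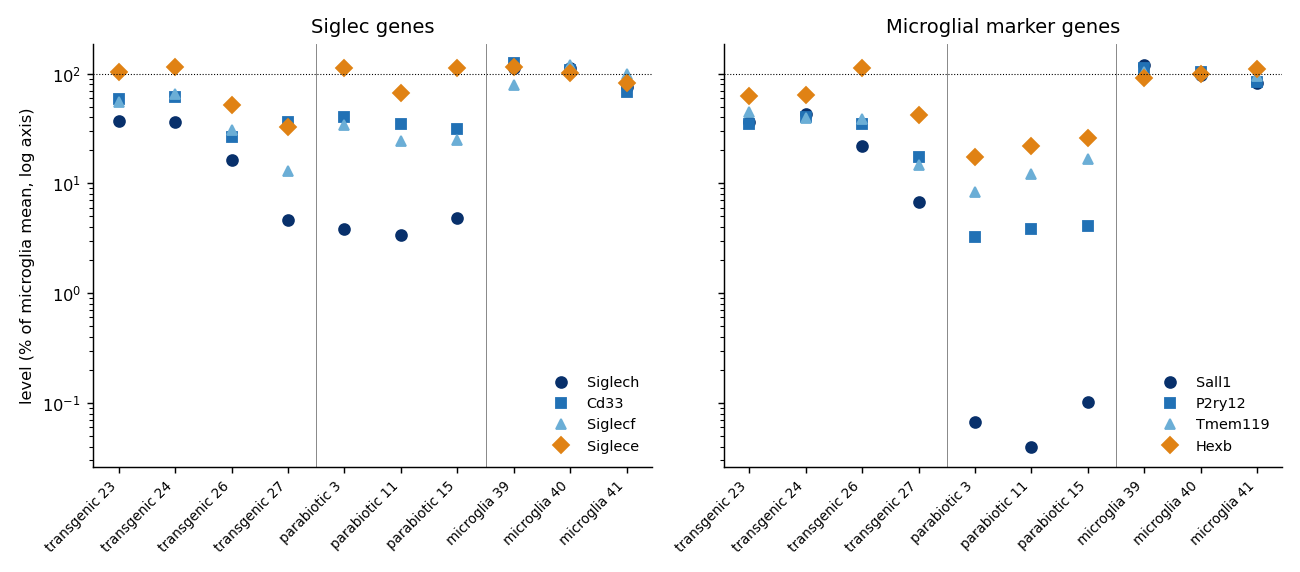
Level of 4 Siglec genes (left) and 4 microglial marker genes (right) in each library, in percent of the microglia mean, on a log axis with a dotted line at 100%. Siglech in parabiotic CD11c cells stood at 3.38% to 4.87%, while Siglece in the same libraries spread around the microglia mean.

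Cd33, which in humans encodes an inhibitory Siglec linked by genetics to Alzheimer's disease and in mice lacks the usual inhibitory motif, was also highest in microglia. It was measured at 338, 353, 152 and 209.6 CPM in transgenic replicates 23, 24, 26 and 27, at 235, 203 and 182 CPM in parabiotic replicates 3, 11 and 15, and at 722, 622 and 393 CPM in microglia replicates 39, 40 and 41. All microglia libraries were above all CD11c libraries, and the transgenic range enclosed the parabiotic one. Cd33 was lower by −1.49 ± 0.32 on the log2 scale in parabiotic CD11c cells (SE, edgeR adjusted p = 0.00446) and by −1.14 ± 0.29 in transgenic CD11c cells (SE, edgeR adjusted p = 0.0278) relative to microglia. The transgenic call was lost in the restricted value (−0.75, adjusted p = 0.11) and without transgenic replicate 27, microglia replicate 39 or microglia replicate 40 (adjusted p up to 0.137). Cd33 was not called between transgenic and parabiotic CD11c cells (0.35 ± 0.30 SE, edgeR adjusted p = 0.542).

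Siglecf, an inhibitory Siglec, had 28.2, 32.9, 15.5 and 6.58 CPM in transgenic replicates 23, 24, 26 and 27, 17.3, 12.4 and 12.5 CPM in parabiotic replicates 3, 11 and 15, and 40.1, 61.4 and 50.7 CPM in microglia replicates 39, 40 and 41. Again the microglia libraries were above all others, and the transgenic range enclosed the parabiotic one. Siglecf was lower in parabiotic CD11c cells than in microglia (log2 fold change −1.85 ± 0.47 SE, edgeR adjusted p = 0.0103). In transgenic CD11c cells the log2 fold change over microglia was −1.29 ± 0.42 (SE, edgeR adjusted p = 0.0637), which missed the threshold and passed it without transgenic replicate 24 or 27 (lowest adjusted p 0.0298). Between transgenic and parabiotic CD11c cells the log2 fold change was 0.56 ± 0.43 (SE, edgeR adjusted p = 0.492). Summed levels of the 7 eosinophil markers in the table were 1.41 to 3.21 CPM in transgenic, 1.18 to 3.40 CPM in parabiotic and 1.32 to 1.84 CPM in microglia libraries. Prg2, Ear1, Ear6 and Il5ra of that list were at 0 in microglia. Of the 2 eosinophil markers tested, 1 was higher in parabiotic CD11c cells than in microglia and 1 lower. Summed levels of 7 alveolar and border macrophage markers were 61.4 to 253 CPM in transgenic, 167 to 199.9 CPM in parabiotic and 125 to 239.7 CPM in microglia libraries. Of the 6 tested, 2 were higher and 3 lower in parabiotic CD11c cells than in microglia. Over all tested genes 17.4% were higher and 17.9% lower in parabiotic CD11c cells than in microglia. The part of eosinophils and of these macrophages in the Siglecf result was not tested.

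Siglecf and Cd33 lie near each other on chromosome 7, at chr7:43351341-43359531 (plus strand) and chr7:43524216-43544428 (minus strand) in GENCODE M21 on GRCm38. Their promoter windows from RefSeq (GRCm38.p6, 250 bases before to 50 after the start site) are shown because both genes were lower in parabiotic CD11c cells and because these windows share the longest identical run among the 45 pairs of members. The windows are at chr7:43351091-43351390 for Siglecf and chr7:43533122-43533421 for Cd33, the second of which lies inside the span GENCODE gives for Cd33. Capitals mark the 3 runs of 12 or more identical bases that the windows share on the strand of each gene.
Siglecf: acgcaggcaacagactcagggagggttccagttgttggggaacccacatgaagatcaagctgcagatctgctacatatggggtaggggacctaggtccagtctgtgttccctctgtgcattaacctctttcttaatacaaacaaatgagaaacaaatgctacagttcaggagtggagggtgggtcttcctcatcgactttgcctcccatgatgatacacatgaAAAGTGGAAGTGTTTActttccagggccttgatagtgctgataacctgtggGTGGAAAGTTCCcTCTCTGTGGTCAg
Cd33: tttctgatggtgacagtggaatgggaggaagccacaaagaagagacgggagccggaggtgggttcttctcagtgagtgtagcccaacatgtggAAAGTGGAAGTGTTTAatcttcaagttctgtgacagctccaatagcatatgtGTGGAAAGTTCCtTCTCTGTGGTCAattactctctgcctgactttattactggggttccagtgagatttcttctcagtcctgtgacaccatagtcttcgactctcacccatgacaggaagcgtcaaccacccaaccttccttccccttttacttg
The longest run, of 16 bases, starts 27 bases before the start site in Siglecf and 157 before it in Cd33, and the other 2 runs have 12 bases each. Only 2 of the 45 pairs shared a run of 12 bases, the second being Siglece and Cd300ld. A shared run describes the letters of these windows and shows nothing about binding.

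Siglecg, an inhibitory Siglec of B cells and myeloid cells that binds CD24, was the only Siglec member higher in CD11c cells. Its level was 21.3, 20.8, 2.58 and 2.48 CPM in transgenic replicates 23, 24, 26 and 27, 44.6, 30.3 and 37.1 CPM in parabiotic replicates 3, 11 and 15, and 2.01, 1.57 and 0.981 CPM in microglia replicates 39, 40 and 41. All parabiotic libraries were above all transgenic ones, and all transgenic ones above all microglia. Transgenic replicates 26 and 27 lay close to microglia, and 23 and 24 apart from them. Siglecg had a log2 fold change over microglia of 4.61 ± 0.86 in parabiotic CD11c cells (SE, edgeR adjusted p = 0.00171) and 2.95 ± 0.78 in transgenic CD11c cells (SE, edgeR adjusted p = 0.0308). The transgenic call was lost without any 1 of microglia replicates 39, 40 and 41 (adjusted p up to 0.124). In the restricted fit the same comparison gave 3.79 (adjusted p = 2.76e-05). The difference between transgenic and parabiotic CD11c cells was not called (−1.66 ± 0.68 SE, edgeR adjusted p = 0.159). Of Siglecg's 50-base stretches of exon sequence, 4.64% also occur in other genes, so part of its reads may be shared.

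Levels of 8 B cell markers summed to 7.79 to 17.3 CPM in transgenic, 11.3 to 26.4 CPM in parabiotic and 16.9 to 18.5 CPM in microglia libraries. In microglia 7 of the 8 averaged under 1 CPM, and in parabiotic libraries 6. Of 5 tested, 2 were higher in parabiotic CD11c cells than in microglia and 0 lower, against 17.4% and 17.9% of all tested genes. The median log2 fold change of these 5 markers was 1.77 in that comparison, against −0.02 over all tested genes. The part of B cells in the Siglecg result was not tested.

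Siglece, an inhibitory Siglec of microglia, monocytes and neutrophils, was not called in any comparison. It had 35.6, 39.4, 17.6 and 11.3 CPM in transgenic replicates 23, 24, 26 and 27, 38.2, 22.5 and 38.6 CPM in parabiotic replicates 3, 11 and 15, and 39.3, 34.9 and 28.0 CPM in microglia replicates 39, 40 and 41. The 3 groups overlapped. Its log2 fold change was −0.04 ± 0.41 in parabiotic CD11c cells over microglia (SE, edgeR adjusted p = 0.947) and −0.39 ± 0.38 in transgenic CD11c cells over microglia (SE, edgeR adjusted p = 0.499). A value near 0 with these errors leaves the direction unset. In the restricted fit it turned to 0.14 in transgenic CD11c cells over microglia and to 0.18 in transgenic over parabiotic CD11c cells. Without parabiotic replicate 11 or microglia replicate 39 it also turned to above 0 in parabiotic CD11c cells over microglia.

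The CD300 genes form a cluster on chromosome 11, from Cd300a at chr11:114890041-114904654 to Cd300lf at chr11:115116214-115133992 (GENCODE M21, GRCm38). Cd300a is on the plus strand and Cd300lb, Cd300ld, Cd300e and Cd300lf are on the minus strand. Rab37 overlaps Cd300lf on the other strand, but their exons share 0 bases.

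Cd300a, which encodes an inhibitory receptor for phosphatidylserine and phosphatidylethanolamine, kept the same order of groups in every library. It had 256, 262, 178 and 176 CPM in transgenic replicates 23, 24, 26 and 27, 459, 531 and 594 CPM in parabiotic replicates 3, 11 and 15, and 79.3, 111.5 and 87.9 CPM in microglia replicates 39, 40 and 41. All parabiotic libraries were above all transgenic ones, which were above all microglia. The log2 fold change over microglia was 2.51 ± 0.22 in parabiotic CD11c cells (SE, edgeR adjusted p = 1.6e-05) and 1.23 ± 0.20 in transgenic CD11c cells (SE, edgeR adjusted p = 0.00335). Transgenic were below parabiotic CD11c cells by a log2 fold change of −1.28 ± 0.20 (SE, edgeR adjusted p = 0.00201). The restricted values were 1.48 over microglia (adjusted p = 0.000355) and −1.03 over parabiotic CD11c cells (adjusted p = 0.00494). Leaving out any 1 library kept all 3 calls of Cd300a.

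Cd300lf, the other inhibitory CD300 receptor, binds phosphatidylserine and ceramide. Its level was 117, 118, 103 and 192 CPM in transgenic replicates 23, 24, 26 and 27, 286, 246 and 210.1 CPM in parabiotic replicates 3, 11 and 15, and 126, 61.6 and 76.3 CPM in microglia replicates 39, 40 and 41. Parabiotic libraries were above all others, while transgenic and microglia libraries overlapped and transgenic replicate 27 stood above its group. Cd300lf was higher in parabiotic CD11c cells than in microglia (log2 fold change 1.49 ± 0.30 SE, edgeR adjusted p = 0.00268). In transgenic CD11c cells the log2 fold change over microglia was 0.59 ± 0.28 (SE, edgeR adjusted p = 0.163). That of transgenic over parabiotic CD11c cells was −0.90 ± 0.27 (SE, edgeR adjusted p = 0.0602), which missed the threshold. It passed by DESeq2 (adjusted p = 0.0176), without a filter on low counts (adjusted p = 0.0321), in the fit of only the 2 groups (adjusted p = 0.0481), and without transgenic replicate 27 or microglia replicate 39 (lowest adjusted p 0.00997).

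Cd300lb, an activating receptor that signals through DAP12, had the lowest adjusted p of the 10 genes in both comparisons with microglia. It had 46.5, 58.6, 46.8 and 42.0 CPM in transgenic replicates 23, 24, 26 and 27, 109, 98.7 and 102 CPM in parabiotic replicates 3, 11 and 15, and 4.27, 8.81 and 9.59 CPM in microglia replicates 39, 40 and 41. The 3 groups did not overlap. Cd300lb had a log2 fold change over microglia of 3.77 ± 0.29 in parabiotic CD11c cells (SE, edgeR adjusted p = 6.7e-06) and 2.68 ± 0.27 in transgenic CD11c cells (SE, edgeR adjusted p = 0.00017). Transgenic were below parabiotic CD11c cells (−1.09 ± 0.24 SE, edgeR adjusted p = 0.0135). This last call was lost without parabiotic replicate 3 (adjusted p = 0.0589) and in the restricted fit (−0.97, adjusted p = 0.0541).

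Cd300ld encodes an activating receptor of mice that pairs with the Fc receptor gamma chain. Only for this gene of the 5 CD300 genes were transgenic replicates 26 and 27 both above 23 and 24. Cd300lf was highest in replicate 27 as well, but not high in 26. It had 48.2, 47.0, 72.2 and 91.7 CPM in transgenic replicates 23, 24, 26 and 27, 77.5, 62.6 and 87.6 CPM in parabiotic replicates 3, 11 and 15, and 14.2, 23.3 and 31.8 CPM in microglia replicates 39, 40 and 41. Both CD11c groups were above all microglia and overlapped each other. Cd300ld had a log2 fold change over microglia of 1.72 ± 0.33 in parabiotic CD11c cells (SE, edgeR adjusted p = 0.00202) and 1.49 ± 0.31 in transgenic CD11c cells (SE, edgeR adjusted p = 0.011). The transgenic call was lost without microglia replicate 39 or 40 (adjusted p up to 0.0558), and its restricted value was 1.04 (adjusted p = 0.0485). Between transgenic and parabiotic CD11c cells the log2 fold change was −0.23 ± 0.30 (SE, edgeR adjusted p = 0.711). Of its 50-base stretches 3.89% also occur in other genes, nearly all of them in Cd300lf.

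Cd300e, an activating receptor that pairs with DAP12 and is known from monocytes, was the lowest of the CD300 genes, also per length of gene. It had 1.98, 2.99, 2.15 and 1.97 CPM in transgenic replicates 23, 24, 26 and 27, 3.33, 3.38 and 4.43 CPM in parabiotic replicates 3, 11 and 15, and 0.932, 1.11 and 0.601 CPM in microglia replicates 39, 40 and 41. These levels rest on 71 to 111 counts per transgenic, 111 to 146 per parabiotic and 19 to 36 per microglia library. The groups did not overlap, in the same order as for Cd300a. Cd300e had a log2 fold change over microglia of 2.07 ± 0.35 in parabiotic CD11c cells (SE, edgeR adjusted p = 0.000872) and 1.37 ± 0.33 in transgenic CD11c cells (SE, edgeR adjusted p = 0.0206). The transgenic call was lost without any 1 of microglia replicates 39, 40 and 41 (adjusted p up to 0.0793). Cd300e was not called between transgenic and parabiotic CD11c cells (−0.71 ± 0.30 SE, edgeR adjusted p = 0.183).

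Summed levels of 8 nonclassical monocyte markers were 794 to 1429 CPM in transgenic, 1225 to 1614 CPM in parabiotic and 1101 to 1365 CPM in microglia libraries. Those of 8 classical monocyte markers were 860 to 3485 CPM in transgenic, 1909 to 2435 CPM in parabiotic and 898 to 1358 CPM in microglia libraries. In microglia 2 of the 8 nonclassical and 4 of the 8 classical monocyte markers averaged under 1 CPM, against 0 of each list in parabiotic libraries. Of the 8 tested genes of each monocyte list, 6 were higher in parabiotic CD11c cells than in microglia and 0 lower. All 8 conventional dendritic cell markers were higher. Over all tested genes 17.4% were higher and 17.9% lower in this comparison. Of 5 tested neutrophil markers 3 were higher and 1, Csf3r, lower. Summed levels of 8 neutrophil markers were 127 to 324 CPM in transgenic libraries, 210.0, 794 and 297 CPM in parabiotic replicates 3, 11 and 15, and 412 to 491 CPM in microglia libraries, with replicate 11 high. In microglia 7 of these 8 neutrophil markers averaged under 1 CPM, with Retnlg and Ly6g at 0. Nearly all of the microglia sum thus came from the rest of the list. In parabiotic libraries 0 of the 8 averaged under 1 CPM. S100a9 of that list, not tested, had 0.172, 208.7 and 24.96 CPM in parabiotic replicates 3, 11 and 15. All 5 CD300 genes were called without parabiotic replicate 11 as well. The part of all these markers in the CD300 result was not tested.

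Promoter windows of the CD300 genes are shown for the 3 that hold AGGAAGT, the core motif of PU.1, a transcription factor of myeloid cells. The search covered both strands of the 10 members' RefSeq windows (GRCm38.p6), and capitals mark the matches, all on the strand of the gene. The windows are at chr11:115133943-115134242 for Cd300lf, chr11:114989837-114990136 for Cd300ld and chr11:115061990-115062289 for Cd300e, all on the minus strand.
Cd300lf: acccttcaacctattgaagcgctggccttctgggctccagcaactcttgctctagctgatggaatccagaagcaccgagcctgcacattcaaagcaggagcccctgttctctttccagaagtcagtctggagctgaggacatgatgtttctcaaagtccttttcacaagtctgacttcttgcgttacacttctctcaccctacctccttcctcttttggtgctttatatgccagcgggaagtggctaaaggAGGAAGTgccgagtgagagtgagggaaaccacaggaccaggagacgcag
Cd300ld: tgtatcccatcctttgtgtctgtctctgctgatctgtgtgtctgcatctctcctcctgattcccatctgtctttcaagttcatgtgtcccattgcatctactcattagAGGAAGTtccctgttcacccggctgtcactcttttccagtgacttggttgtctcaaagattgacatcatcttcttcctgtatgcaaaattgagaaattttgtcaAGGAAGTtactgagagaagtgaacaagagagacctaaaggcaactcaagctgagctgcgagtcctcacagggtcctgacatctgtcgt
Cd300e: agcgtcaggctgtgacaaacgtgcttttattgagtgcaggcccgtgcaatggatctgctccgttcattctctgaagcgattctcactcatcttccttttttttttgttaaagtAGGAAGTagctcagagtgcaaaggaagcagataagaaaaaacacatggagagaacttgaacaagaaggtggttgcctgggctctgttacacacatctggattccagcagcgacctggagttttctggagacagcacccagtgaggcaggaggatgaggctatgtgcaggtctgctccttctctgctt
The match began 2 bases after the start site in Cd300lf, 142 and 38 bases before it in Cd300ld and 137 bases before it in Cd300e. Thus 3 of the 10 members held the motif, against 9.35% of 32851 mouse promoter windows of the same length. The composite motif of PU.1 and IRF factors, GGAA and GAAA separated by 2 bases of any kind, whose first 4 letters overlap the PU.1 core, was in 0 of the 10 members and in 2.72% of all windows. A match is a description of the letters and says nothing about binding in these cells.

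**Figure D3:**
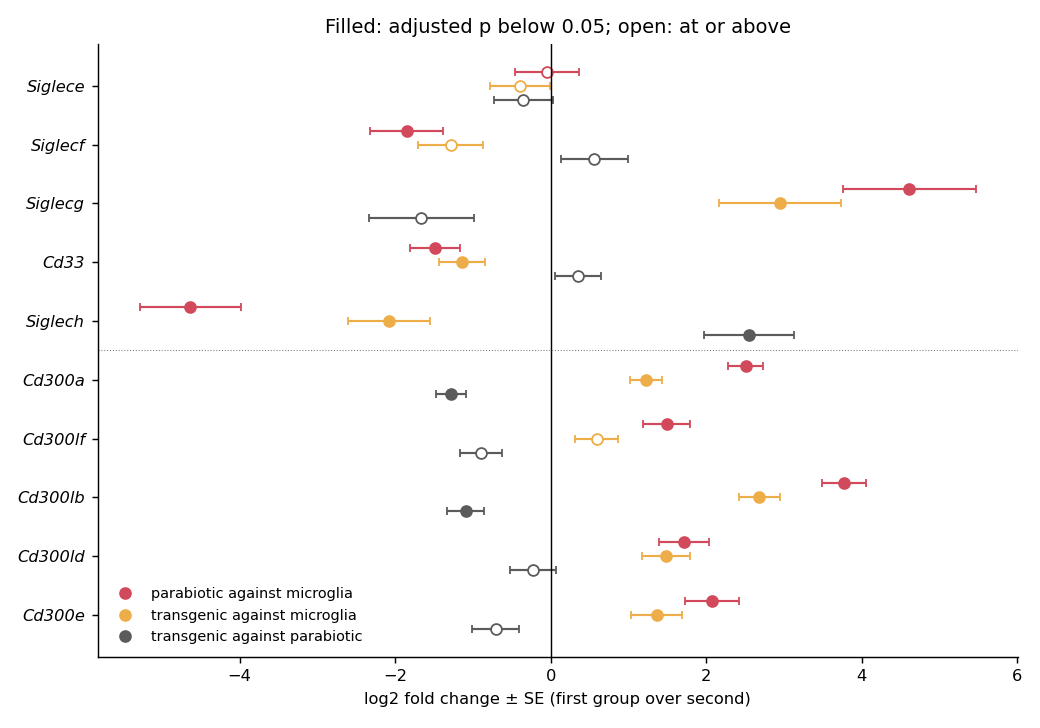
Log2 fold change ± SE of the 10 genes in the 3 comparisons, first-named group over second. Filled points passed an adjusted p of 0.05 and open points did not. All 5 CD300 genes lie above 0 in parabiotic CD11c cells over microglia, and Siglech, Cd33 and Siglecf below 0.

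Against microglia, transgenic CD11c cells showed 7 of the 10 genes called, 5 higher and 2 lower, where 13.7% of all tested genes were called (8.88% higher and 4.79% lower). The higher genes were Siglecg, Cd300a, Cd300lb, Cd300ld and Cd300e, the lower ones Siglech and Cd33. Siglece, Siglecf and Cd300lf were not called. The median log2 fold change was 1.37 over the CD300 genes and −1.14 over the Siglec genes, against 0.02 over all tested genes. Both comparisons with microglia use the same 3 microglia libraries. The number of called members ranged from 2 to 8 when 1 library was left out, and was 2 without microglia replicate 39 or 40. It was 3 when only transgenic and microglia libraries entered the fit, where Siglecg, Siglech, Cd33 and Cd300e had adjusted p of 0.07, 0.0611, 0.0675 and 0.0543. Without a filter on low counts Siglecg and Siglech were not called (adjusted p = 0.115 and 0.0963), and by DESeq2 Siglecf was called as well (adjusted p = 0.0148).

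Between transgenic and parabiotic CD11c cells, 3 of the 10 genes were called, with Siglech higher and Cd300a and Cd300lb lower in transgenic CD11c cells. Of all tested genes 10.1% were called, 7.63% higher and 2.42% lower. Libraries did not overlap for 5 members, all lower in transgenic CD11c cells (Siglecg, Cd300a, Cd300lf, Cd300lb and Cd300e), against 22.7% of tested genes (10.3% lower and 12.4% higher). Without parabiotic replicate 3 only Cd300a was called. The transgenic mean lay between the parabiotic and the microglia mean for 9 of the 10 genes, all except Siglece, against 58.4% of all tested genes.

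To compare genes with each other, levels were divided by the length of each gene's merged exons (CPM per kb). The Siglec genes then held 46.4% ± 15.2 of the 10 genes' summed level in transgenic CD11c cells (SD, n = 4), 22.7% ± 2.45 in parabiotic CD11c cells (SD, n = 3) and 87.0% ± 2.85 in microglia (SD, n = 3). The transgenic libraries spread from 27.1% in replicate 27 through 41.4% in replicate 26 to 58.4% and 58.9% in replicates 24 and 23, while parabiotic libraries held 20.6% to 25.4% and microglia 83.7% to 88.7%. The ranges of the 3 groups did not overlap. With the median length of coding transcripts in place of merged exons, a choice made after seeing the data, the shares were 59.1% in transgenic CD11c cells, 33.8% in parabiotic CD11c cells and 90.3% in microglia.

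**Figure D4:**
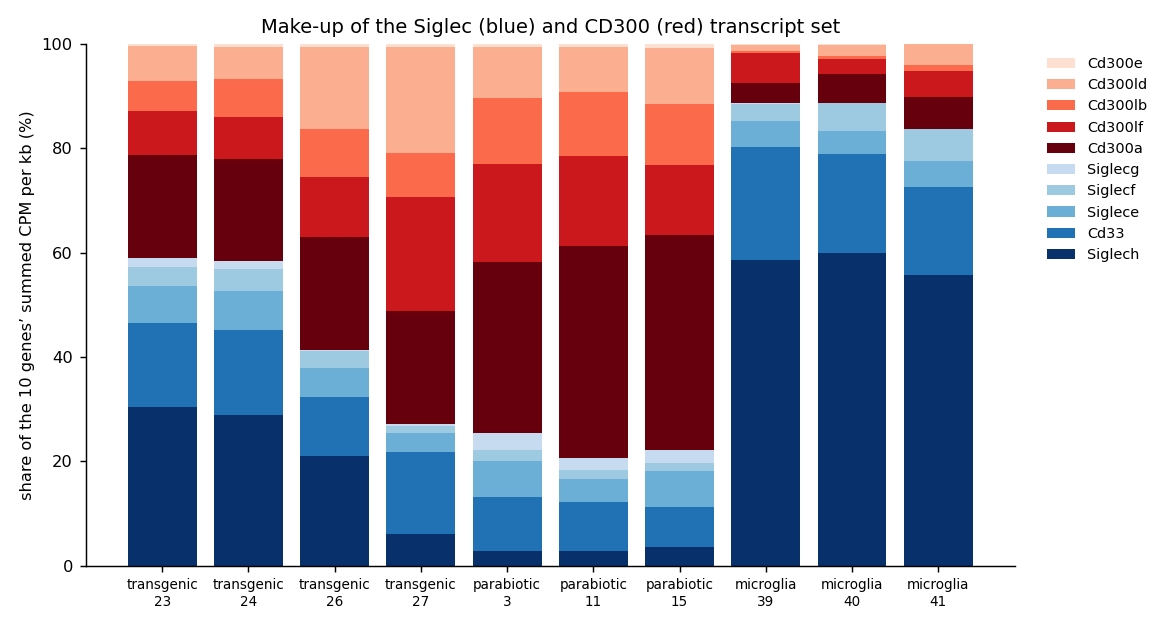
Share of each gene in the summed CPM per kb of the 10 genes, in percent, for each library, with Siglec genes in blue and CD300 genes in red. Siglec genes held 83.7% to 88.7% in microglia and 20.6% to 25.4% in parabiotic libraries.

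In transgenic CD11c cells Siglech (53.0 ± 35.6 CPM per kb), Cd300a (46.0 ± 10.1) and Cd33 (33.9 ± 12.6) led, and they did not differ beyond their spread (SD, n = 4). The transgenic libraries differed in this order: Siglech led in replicates 23 and 24 with 30.5% and 29.0% of the summed level, Cd300a in replicate 26 with 21.6% against 21.1% for Siglech, and Cd300lf in replicate 27 with 21.8% against 6.09% for Siglech. In parabiotic CD11c cells Cd300a led with 111 ± 14.2 CPM per kb, followed by Cd300lf at 48.0 ± 7.40, Cd300lb at 35.4 ± 1.72, Cd300ld at 28.7 ± 4.75 and Cd33 at 26.6 ± 3.49 (SD, n = 3). Cd300ld and Cd33 did not differ beyond their spread there. In microglia Siglech led with 224 ± 48.7 CPM per kb, followed by Cd33 at 74.5 ± 21.7, and Cd300a, Siglece, Siglecf and Cd300lf stood together at 17.1 to 19.6 CPM per kb (SD, n = 3). The lowest were Cd300e in both CD11c groups, at 1.09 CPM per kb in transgenic and 1.78 in parabiotic libraries, and Siglecg and Cd300e in microglia, at 0.316 and 0.421. With median transcript lengths Siglech and Cd33 again led in microglia, but Cd33 led in transgenic CD11c cells (134 CPM per kb) and Cd300lf in parabiotic CD11c cells (133 CPM per kb), so the order within CD11c cells depends on the length used.

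Other genes of both families were measured as well. Siglec1, the macrophage sialoadhesin, averaged 93.5 ± 19.9 CPM in transgenic (SD, n = 4), 90.0 ± 16.5 CPM in parabiotic (SD, n = 3) and 191 ± 54.4 CPM in microglia libraries (SD, n = 3), and was lower than in microglia in parabiotic (−1.09 ± 0.25 SE, edgeR adjusted p = 0.00584) and transgenic CD11c cells (−1.03 ± 0.23 SE, edgeR adjusted p = 0.0139). The transgenic call of Siglec1 was lost without microglia replicate 41. Of the 6 tested alveolar and border macrophage markers, 2 were higher and 3 lower in parabiotic CD11c cells than in microglia, as given above. The part of these macrophages in the Siglec1 result was not tested. Mag, the Siglec of myelinating cells, was lower in parabiotic CD11c cells (4.98 ± 2.39 CPM, SD, n = 3) than in microglia (21.5 ± 2.99 CPM, SD, n = 3), with an edgeR adjusted p of 0.000349. Cd22, the B cell Siglec, averaged 69.7 ± 31.1 CPM in transgenic (SD, n = 4), 71.3 ± 23.5 CPM in parabiotic (SD, n = 3) and 68.7 ± 24.1 CPM in microglia libraries (SD, n = 3), within its spread. Cd300lg, known from endothelium, was low but higher in parabiotic CD11c cells (6.82 ± 1.07 CPM, SD, n = 3) than in microglia (0.671 ± 0.373 CPM, SD, n = 3), with an edgeR adjusted p of 0.000235. Cd300c2 was higher in parabiotic CD11c cells (248 ± 30.4 CPM, SD, n = 3) than in microglia (169 ± 10.2 CPM, SD, n = 3), with an edgeR adjusted p of 0.0203. That call was lost without parabiotic replicate 11 or 15 or microglia replicate 40 or 41 (adjusted p up to 0.0955).

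The adaptors that the activating members need were not called against microglia. Tyrobp, encoding DAP12 for Siglech, Cd300lb and Cd300e, averaged 1082 ± 351 CPM in transgenic (SD, n = 4), 1029 ± 134 CPM in parabiotic (SD, n = 3) and 895 ± 176 CPM in microglia libraries (SD, n = 3), with a log2 fold change of 0.20 ± 0.26 in parabiotic CD11c cells over microglia (SE, edgeR adjusted p = 0.576). Fcer1g, the gamma chain for Cd300ld, averaged 1401 ± 423 CPM in transgenic (SD, n = 4), 1165 ± 147 CPM in parabiotic (SD, n = 3) and 966 ± 186 CPM in microglia libraries (SD, n = 3), with a log2 fold change of 0.27 ± 0.25 in parabiotic CD11c cells over microglia (SE, edgeR adjusted p = 0.433). Of 17 tested adaptor and kinase genes of activating receptors, 5 were higher and 2 lower in parabiotic CD11c cells than in microglia, against 17.4% higher and 17.9% lower over all tested genes. Fgr and Fyn, kinases of the Src family, were higher by 2.74 ± 0.32 and 1.47 ± 0.19 on the log2 scale (SE, edgeR adjusted p = 7.62e-05 and 0.000164), while Lyn, of the same family, was lower (−0.68 ± 0.13 SE, adjusted p = 0.00213). Syk, the kinase recruited by DAP12, was higher in parabiotic CD11c cells (1.01 ± 0.27 SE, edgeR adjusted p = 0.0143), a call lost without parabiotic replicate 3 or microglia replicate 39 or 41 (adjusted p up to 0.0545). In transgenic CD11c cells 2 of the 17 were higher than in microglia and 1 lower, against 8.88% and 4.79% of all tested genes. The shares of this list lie near those of all tested genes in both comparisons.

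Of 14 phosphatase and effector genes of inhibitory receptors, 3 were higher and 3 lower in parabiotic CD11c cells than in microglia, where 35.3% of all tested genes were called in either direction. This share too lies near that of all tested genes. Ptpn6, the phosphatase SHP-1 that inhibitory Siglecs and CD300 receptors recruit, averaged 436 ± 140 CPM in transgenic (SD, n = 4), 467 ± 65.8 CPM in parabiotic (SD, n = 3) and 512 ± 69.6 CPM in microglia libraries (SD, n = 3) and was not called. Inpp5d, the lipid phosphatase SHIP-1, was lower in parabiotic CD11c cells (644 ± 55.0 CPM, SD, n = 3) than in microglia (1256 ± 93.6 CPM, SD, n = 3), with an edgeR adjusted p of 0.0034. Sh2d1b1, an adaptor of the SAP family, was higher (3.61 ± 0.26 SE, edgeR adjusted p = 4.86e-06) and Pag1, a membrane adaptor that binds the kinase Csk, lower (−2.84 ± 0.38 SE, edgeR adjusted p = 0.000201) in parabiotic CD11c cells on the log2 scale.

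Sialic acid ligands depend on sialyltransferases. Of 13 tested, 4 were higher and 4 lower in parabiotic CD11c cells than in microglia, against 17.4% and 17.9% of all tested genes. In transgenic CD11c cells 3 were higher and 3 lower than in microglia, against 8.88% and 4.79% of all tested genes. St3gal6, which adds sialic acid in the alpha-2,3 linkage, had 63.8, 89.2, 97.7 and 37.6 CPM in transgenic replicates 23, 24, 26 and 27, 1.95, 2.13 and 2.76 CPM in parabiotic replicates 3, 11 and 15, and 190.2, 199 and 143 CPM in microglia replicates 39, 40 and 41. The 3 groups of St3gal6 did not overlap, and its log2 fold change was −6.28 ± 0.39 in parabiotic CD11c cells over microglia (SE, edgeR adjusted p = 2.63e-06). St3gal4, of the same linkage, ran the other way, with 35.5 ± 9.22 CPM in transgenic (SD, n = 4), 79.6 ± 3.99 CPM in parabiotic (SD, n = 3) and 13.0 ± 0.929 CPM in microglia libraries (SD, n = 3). Its log2 fold change was 2.61 ± 0.23 in parabiotic CD11c cells over microglia (SE, edgeR adjusted p = 1.33e-05) and 1.45 ± 0.21 in transgenic CD11c cells over microglia (SE, edgeR adjusted p = 0.00139). St8sia4, a polysialyltransferase, was higher (2.60 ± 0.37 SE, edgeR adjusted p = 0.000303) and St3gal5, which makes the ganglioside GM3, lower (−1.90 ± 0.22 SE, edgeR adjusted p = 7.34e-05) in parabiotic CD11c cells than in microglia on the log2 scale. Of 9 sialic acid synthesis and activation genes 1 was higher and 1 lower, and of 3 sialidases none was called in any comparison.

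The list of 12 ligand genes also held Il4ra, Itgb2, Tlr4 and Apoe, so it is not limited to ligands of the members. Of these 12 tested genes, 5 were higher and 3 lower in parabiotic CD11c cells than in microglia, against 17.4% and 17.9% of all tested genes. Cd24a, encoding the CD24 protein that Siglec-G binds, had 41.7, 38.2, 35.1 and 125 CPM in transgenic replicates 23, 24, 26 and 27, 159.8, 139.7 and 106 CPM in parabiotic replicates 3, 11 and 15, and 0.311, 0.338 and 0.285 CPM in microglia replicates 39, 40 and 41. All CD11c libraries were above all microglia, as for Siglecg. The log2 fold change of Cd24a over microglia was 8.75 ± 0.63 in parabiotic CD11c cells (SE, edgeR adjusted p = 5.7e-06) and 7.58 ± 0.61 in transgenic CD11c cells (SE, edgeR adjusted p = 5.87e-05). Apoe, a lipid carrier that binds TREM2, was higher in parabiotic CD11c cells (2.03 ± 0.31 SE, edgeR adjusted p = 0.000487), and Vcam1, an adhesion molecule, lower (−3.52 ± 0.45 SE, edgeR adjusted p = 0.000164).

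**Figure D5:**
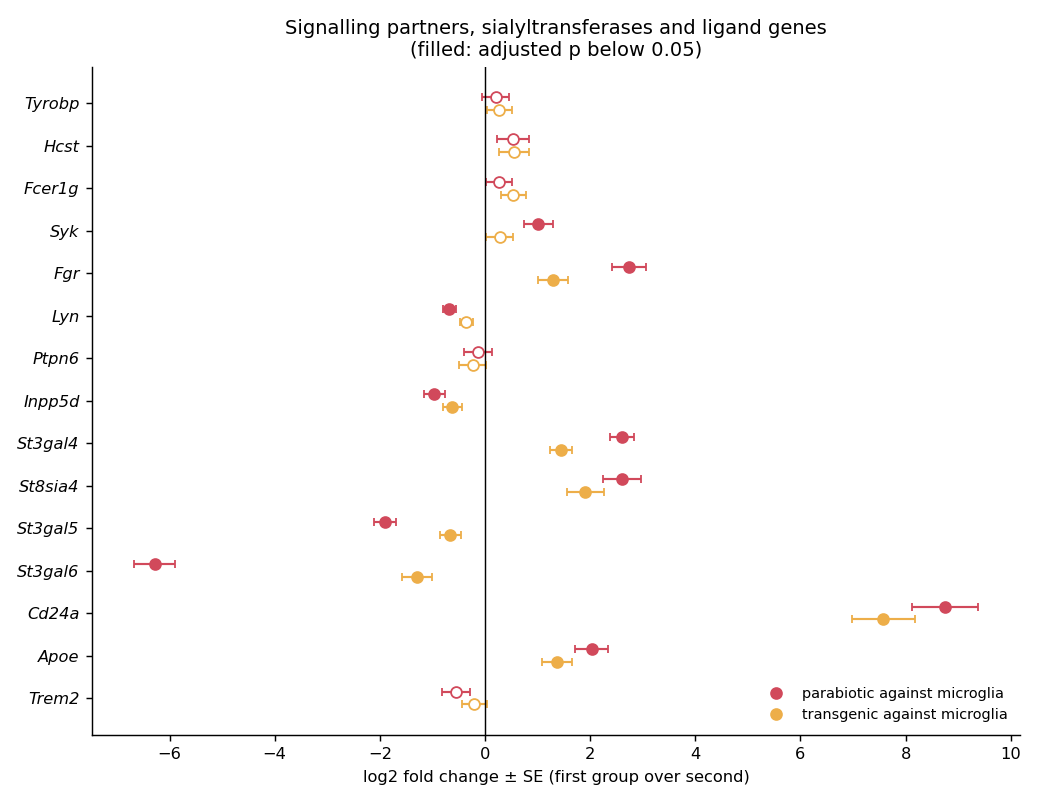
Log2 fold change ± SE over microglia of signalling partners, sialyltransferases, ligand genes and Trem2 in parabiotic and transgenic CD11c cells. Filled points passed an adjusted p of 0.05. Tyrobp, Hcst, Fcer1g and Ptpn6 lie near 0 and were not called. Among the genes plotted, St3gal6 lies lowest and Cd24a highest.

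Genes of other paired receptor families, some of which use the same adaptors, were counted as well. Of 6 tested TREM family genes, 3 were higher and 1 lower in parabiotic CD11c cells than in microglia. Over all tested genes these shares were 17.4% and 17.9%. Treml4 and Trem1 were higher (3.58 ± 0.54 and 2.95 ± 0.58 SE on the log2 scale, edgeR adjusted p = 0.000479 and 0.00239) and Treml2 lower (−1.54 ± 0.27 SE, edgeR adjusted p = 0.00128). Trem2, a DAP12 partner of microglia, averaged 699 ± 218 CPM in transgenic (SD, n = 4), 547 ± 102 CPM in parabiotic (SD, n = 3) and 805 ± 138 CPM in microglia libraries (SD, n = 3), and was not called. Of 20 paired immunoglobulin-like receptor genes, 11 were higher and 4 lower in parabiotic CD11c cells than in microglia, against 17.4% and 17.9% of all tested genes. In transgenic CD11c cells 11 were higher and 0 lower than in microglia, against 8.88% and 4.79% of all tested genes. Sirpb1b and Sirpb1c, near-identical copies whose reads may be split uncertainly, were higher by 6.56 ± 0.37 and 6.58 ± 0.42 on the log2 scale in parabiotic CD11c cells (SE, edgeR adjusted p = 1.65e-06 and 2.63e-06). Lilra5 and Lair1, an activating and an inhibitory receptor, were lower there (−4.34 ± 0.40 and −1.29 ± 0.21 SE, edgeR adjusted p = 1.79e-05 and 0.000759).

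For each member, the 2 genes with the most similar pattern were taken by Pearson correlation of log2 CPM over the 10 libraries, among 7245 genes. This compares the shape of the pattern, not the level or the size of the change. The correlation is a measure of likeness over libraries that fall into 3 groups, without a test. For Siglech these were Slc7a8, an amino acid transporter (r = 0.995, with 388, 224 and 648 CPM on average in transgenic, parabiotic and microglia libraries), and Hpn, a serine protease (r = 0.994). For Cd33 they were Ralgps1 (r = 0.992) and H2-K2 (r = 0.991). For Siglecg they were Ctnnd2 and H2-DMb2, a gene of antigen loading (r = 0.987 each). For Cd300a they were St3gal4 (r = 0.988) and Sgsh, a lysosomal sulfatase (r = 0.985). For Cd300lb they were Iqgap2 (r = 0.992) and Nr1h3, the oxysterol receptor LXR alpha (r = 0.991, with 13.2, 23.6 and 2.22 CPM on average in transgenic, parabiotic and microglia libraries). The lowest first match was that of Cd300e, Pid1 (r = 0.974).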

How the data were processed

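The authors deposited raw counts for Ensembl genes in 10 libraries, made with FastQC 0.11.5, STAR 2.5.3a, DESeq2 and the GRCm38 build per the submitters' processing notes. Libraries were made with a SMART-Seq v4 kit from sorted, unstained cells per the labels' protocols. The sources used here give no counting program, annotation or strand setting. Reads of overlapping genes on opposite strands may not be told apart. Symbols and coordinates came from GENCODE M21 and matched 28492 of 28585 identifiers. All libraries entered 1 fit with 1 mean per group, and replicate numbers are not shared between groups. filterByExpr kept 15151 genes and removed 13434. Libraries were scaled by TMM and tested with edgeR 4.0.16 (glmQLFit with robust dispersion, glmQLFTest, R 4.3.3). The common dispersion was 0.1002. Libraries held 31534625 to 41730688 counts, and the lowest count of a member in a library was 19, for Cd300e in microglia. The fit was tested on simulated data with known changes. Alternatives were RLE scaling, DESeq2 1.42.0, no filter on low counts, a filter of at least 5 CPM in at least 3 libraries, fits of only the groups compared, a term for transgenic replicates 26 and 27, and each library left out.

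Named were all 10 members, other family genes with at least 1 CPM on average in a group, the 2 genes with the lowest p in each direction of each list, direct partners of members, and the 2 genes most like each member. Not all of them are printed. Members and lists were chosen with earlier results of these data known. Mature protein sequences were not used here.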

Additional observations from a re-analysis of the deposited data

Results flagged for a closer look

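In the 4 transgenic libraries, 1 library stood apart from the other 3 for 4 of 48 genes examined, where the gap to the nearest library divided by the range passed Dixon's 95% critical value for 4 samples. Chance gives about 1 in 20 such cases. Cd300lf had a ratio of 0.835, with replicate 27 high at 192 CPM against 103 to 118 CPM in the other transgenic libraries. Cd24a had a ratio of 0.927, with replicate 27 high at 125 CPM against 35.1 to 41.7 CPM. Lilra5 had a ratio of 0.861 and St3gal5 a ratio of 0.852, each with replicate 26 high. The sources of these differences were not tested.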

How the results depend on the processing

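Over the 10 members and 3 comparisons, 161 fold changes kept their direction and side of the threshold under settings other than leaving out a library, 10 lost a call, 4 gained one and 2 turned. With 1 library left out, the numbers were 276, 18, 4 and 2. All that turned were of Siglece, which was never called: 0.14 for transgenic CD11c cells over microglia and 0.18 over parabiotic CD11c cells with a term for transgenic replicates 26 and 27, and −0.18 to 0.17 for parabiotic CD11c cells over microglia with a library left out. Under the same term Ptpn6 turned to 0.035 and Npl to −0.39 in transgenic CD11c cells over microglia, neither called.

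Against microglia, 9 members were called in parabiotic CD11c cells in every fit with a library left out. In transgenic CD11c cells 7 were called, 2 to 8 with a library left out and 3 in the fit of only the 2 groups. Between transgenic and parabiotic CD11c cells 3 were called, and 1 to 4 with a library left out. Over all genes, calls in transgenic CD11c cells against microglia numbered 2070, but 3277 with DESeq2, 1229 in the fit of 2 groups, 1303 with the term for replicates 26 and 27, and 746, 775 and 1377 without microglia replicate 39, 40 or 41. Between transgenic and parabiotic CD11c cells they numbered 1523, but 2360 with DESeq2, 999 in the fit of 2 groups, 830, 897 and 905 without parabiotic replicate 3, 11 or 15, and 2510 without transgenic replicate 27. The causes were not tested. The stricter filter removes Cd300e. No paired analysis was possible because the groups share no replicate numbers. Groups of 3 and 4 libraries limit the precision of every value, and depth limits that of Cd300e and Siglecg in microglia.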
